A study of Mus musculus with 18 samples.

Results

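Loss of the CTCF-binding site θ1 was examined in primary mouse erythroid cells that already lacked the neighbouring site θ2, by comparing the contacts of the α-globin promoters in Δθ1/θ2 cells with those in Δθ2 cells. The comparison rested on 3 Δθ1/θ2 and 3 Δθ2 samples, chosen by their genotype labels, which are 6 of the 12 samples of experiment 2 and 6 of the 18 in the series. All came from adult mice, C57BL/6 in the labels and of a C57BL/6J background in the methods, treated with phenylhydrazine, which destroys red cells and fills the spleen with erythroid precursors. Ter119+ cells were taken from the spleens on magnetic beads, fixed, cut with DpnII and assayed by NG Capture-C. The mutants were homozygous germline alleles made with CRISPR-Cas9, and every cell of the animal carried them. In both groups θ2 was replaced by a short edited sequence, and the Δθ1/θ2 group carried in addition a short deletion at θ1. WT mice of the same experiment (n = 3) gave the level with both sites intact, and Δθ1 mice (n = 3) gave the loss of θ1 with θ2 in place. At Loxl2, seen from the Slc25a37 viewpoint on a chromosome without an edit, densities (defined below) were 10.7 to 15.3 in WT, 66.7 to 77.3 in Δθ1, 85.5 to 91.4 in Δθ2 and 83.2 to 89.3 in Δθ1/θ2. The WT samples thus stood apart from all mutants there, and what this has to do with any difference from WT given below, including that of Δθ1, was not tested. The files hold DNA contacts and no RNA, so the erythroid label could not be checked against marker genes.

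CTCF is a zinc-finger protein that stops the loop-extruding cohesin ring when the ring meets its motif from one side, and clusters of CTCF sites mark the borders of many domains. The mouse α-globin genes lie in a small erythroid sub-domain, here called the sub-TAD, with the CTCF sites HS-38 and HS-39 at its upstream border. The CTCF sites θ1 and θ2 lie inside it, and HS+44 and HS+48 lie downstream. The paper reports that the downstream border stayed largely intact without these sites. It places that border at the active Hba-a2 gene. The enhancers R1 to R4, which lie upstream in and beside introns of Nprl3, drive the adult genes Hba-a1 and Hba-a2. The θ sites each stand just before a θ-globin gene, Hbq1b for θ1 and Hbq1a for θ2, so θ1 sits between the adult α genes and θ2 beyond both.

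The edited sites are shown because their sequence is what differs between the groups compared. On mm9, θ1 spanned 30 bases at chr11:32186925-32186954 and θ2 at chr11:32200030-32200059, both on the forward strand of the reference, and the capitals mark 11 bases of the CTCF motif at which the edits were placed.
θ1: cgatgcagcgCCCCCTGGCGGcctcttgtg
θ2: cgatgcagcgCCCCCTGGCGGcctcttgtg
The printed windows were identical in every base. The θ1 motif ended 19 bases before the annotated start of Hbq1b and the θ2 motif 18 bases before Hbq1a, and the sites lay 13105 bases apart. In windows of 411 bases centred on each motif the sequences differed by an edit distance of 16 bases. θ1 fell within a DpnII fragment of 564 bp (chr11:32186469-32187032) that also covers the start of Hbq1b. θ2 fell within a fragment of 645 bp (chr11:32199493-32200137).

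Each sample gave between 70160 and 232346 listed interaction counts over 5 viewpoints, the captured promoter fragments of Hba-a1, Hba-a2, both adult β-globin genes and Slc25a37. The last 3 are control loci on other chromosomes. Counts from the α viewpoints in cis, outside a zone of 1 kb around the viewpoint fragments, were 41331, 65028 and 20867 in the Δθ2 samples and 43347, 19120 and 19081 in the Δθ1/θ2 samples. The deepest sample of the comparison was thus a Δθ2 sample, and each group held shallow ones. Of the α counts, 70.5, 71.2 and 69.6% fell in cis in Δθ2 and 71.9, 71.0 and 71.3% in Δθ1/θ2. Levels below are densities, the counts per kb of an interval per 100000 cis counts of the same sample, summed over the Hba-a1 and Hba-a2 viewpoints. The edgeR quasi-likelihood test compared the groups, and an interval was called at an adjusted p under 0.01, with Benjamini-Hochberg adjustment over all intervals of the locus.

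Chromosome 11 was divided into 18 intervals by the CTCF sites, the enhancers and distance. None was called between Δθ1/θ2 and Δθ2 by edgeR at this threshold (0 of 18, a background of 0.0%), while 7 had an unadjusted p under 0.05 and DESeq2 called 3. The intervals nonetheless fell into a contiguous order. All 8 from HS-38/-39 to HS+44/+48, the stretch that holds the promoters, had a fold change above 0, with a median of 0.14 on the log2 scale. All 10 outside it had one below 0, with a median of -0.26. Since each sample was scaled to its own cis total, a higher share inside requires a lower share outside. With TMM factors in place of the cis total, 4 of the 8 inner intervals lay above 0 and 4 below, with the 10 outer ones still below 0. All 3 Δθ1/θ2 samples lay above all 3 Δθ2 samples in 3 of 18 intervals (16.7%) and below them in 5 (27.8%).

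**Figure D1:**
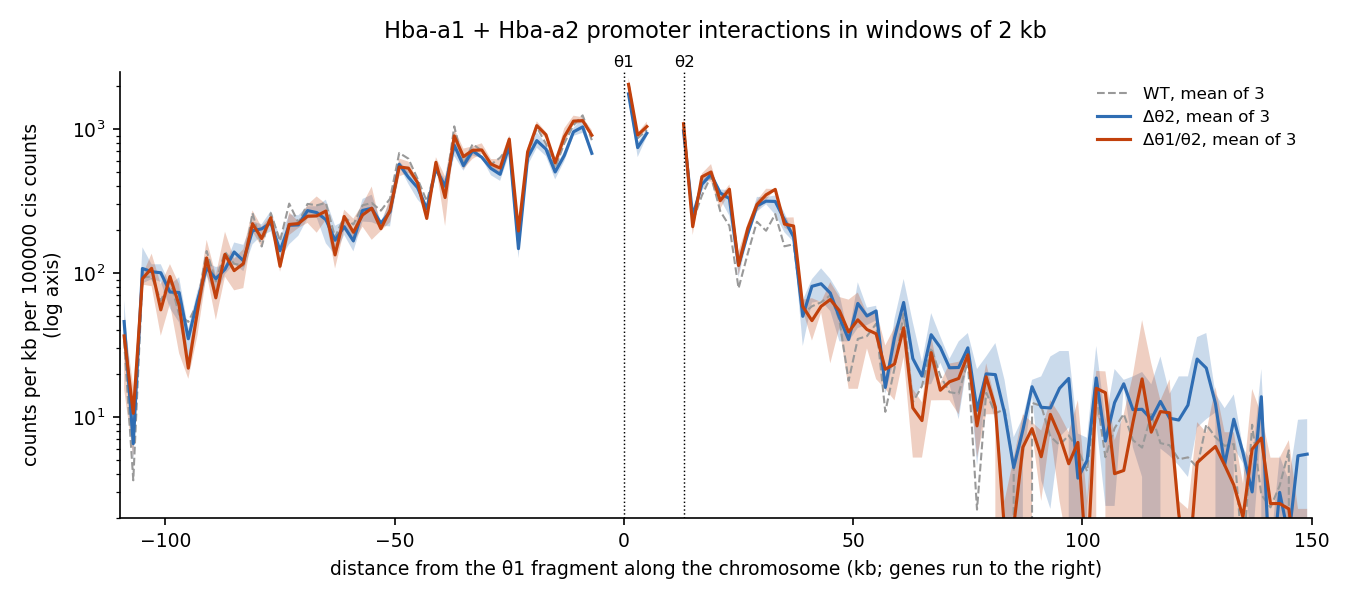
Interaction density of the Hba-a1 and Hba-a2 promoters in windows of 2 kb against distance from the θ1 fragment in kb, on a log axis in counts per kb per 100000 cis counts. Coloured lines are means of 3 samples and bands run from the lowest to the highest sample, the dashed line is the WT mean, and gaps are windows that hold excluded viewpoint fragments. The Δθ1/θ2 and Δθ2 lines run together through the locus, and the Δθ2 line lies above beyond about the last CTCF cluster on the right.

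The enhancer interval, a stretch of 26.9 kb from R1 past R4, had densities of 592, 583 and 544 in the Δθ2 samples and 657, 627 and 651 in the Δθ1/θ2 samples. The groups did not overlap, and all 3 double mutants were higher. The log2 fold change was 0.17 (SE 0.0746, 95% CI 0.00 to 0.34) with an edgeR adjusted p of 0.125. It was 0.02 with TMM factors (adjusted p 0.926) and 0.10 with the counts within 1 Mb as library size (adjusted p 0.236). In WT the densities were 686, 624 and 586, a range that holds all 3 Δθ1/θ2 values and the first Δθ2 value.

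The interval around Hba-x, the embryonic ζ-like gene between the enhancers and Hba-a1, had the lowest adjusted p of the intervals inside the sub-TAD. Its densities were 876, 890 and 841 in Δθ2 and 1079, 989 and 1094 in Δθ1/θ2, with no overlap. The log2 fold change was 0.28 (SE 0.0776, 95% CI 0.10 to 0.45), unadjusted p 0.00597 and edgeR adjusted p 0.0718, and 0.13 with TMM factors (adjusted p 0.625). WT samples lay at 1046, 1024 and 1018, above every Δθ2 sample and within the range of the Δθ1/θ2 samples.

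The stretch between the promoters, chr11:32185214-32194503, holds θ1 itself and Hbq1b. Its densities were 1048, 980 and 954 in Δθ2 and 1105, 1205 and 1160 in Δθ1/θ2, again without overlap. The log2 fold change was 0.22 (SE 0.0785, 95% CI 0.04 to 0.40) with an edgeR adjusted p of 0.0877, or 0.07 with TMM factors (adjusted p 0.843) and 0.15 with the library size within 1 Mb (adjusted p 0.113). The WT mean was 1149. DESeq2 called this interval, the Hba-x interval and the enhancers, and it called no other.

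The fragment that carries the θ1 deletion did not separate the groups. It held 796, 681 and 709 counts per 100000 cis counts in Δθ2 and 623, 994 and 723 in Δθ1/θ2, so the double mutants gave the lowest and the highest value. Its log2 fold change was 0.09 (SE 0.175) with an edgeR adjusted p of 0.988. The fragment that carries θ2, edited in both groups, held 450, 466 and 427 in Δθ2 and 473, 643 and 451 in Δθ1/θ2, with overlapping ranges (log2 fold change 0.21, SE 0.196, edgeR adjusted p 0.988). The wider θ2 interval with Hbq1a had densities of 577, 525 and 547 against 564, 631 and 606.

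Upstream, the CTCF pair HS-38/-39 that faces the θ sites had densities of 519, 496 and 456 in Δθ2 and 512, 587 and 495 in Δθ1/θ2. The ranges overlapped, and the log2 fold change of 0.11 had a 95% CI of -0.11 to 0.33, which holds 0. All 3 WT samples were higher than all 3 Δθ2 samples there, with 633, 583 and 696. Within this interval the HS-38 fragment held 252, 278 and 292 counts per 100000 cis counts in Δθ2 and 212, 251 and 157 in Δθ1/θ2. All 3 double mutants were lower at that fragment, with a log2 fold change of -0.40 (SE 0.243) and an edgeR adjusted p of 0.758, and the HS-39 fragment overlapped between the groups (log2 fold change 0.07). From HS-38 to R1 the fold change was 0.02 on the log2 scale (95% CI -0.20 to 0.24).

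The R1 and R2 fragments cover the strongest enhancers. R1 held 377, 406 and 450 counts per 100000 cis counts in Δθ2 and 401, 366 and 550 in Δθ1/θ2. R2, in an intron of Nprl3, held 271, 360 and 311 in Δθ2 and 468, 199 and 404 in Δθ1/θ2. At both, the double mutants gave the lowest and the highest of the 6 values, and the log2 fold changes of 0.09 and 0.21 had SEs of 0.203 and 0.215.

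Of 1352 fragments with at least 10 counts over the 6 samples, edgeR called 0 (0.0%) and DESeq2 0, while 109 had an unadjusted edgeR p under 0.05, 40 of them higher and 69 lower in Δθ1/θ2. All 3 double mutants were above all 3 Δθ2 samples at 62 fragments (4.59%) and below at 94 (6.95%). In simulated data edgeR recovered 4.5% of α fragments with a true log2 change of 1, so the lack of calls does not exclude such changes. The fragment with the smallest p, chr11:32169470-32169527, has 58 bp and lies in the enhancer interval, 13.4 kb from the nearest viewpoint. It held 169, 98.4 and 24.0 counts per 100000 cis counts in Δθ2 and 245, 194 and 189 in Δθ1/θ2. The groups did not overlap, but the Δθ2 samples themselves differed widely, and the edgeR adjusted p was 0.357 at a log2 fold change of 1.03 (SE 0.293). The next fragment along, chr11:32169528-32169921, which was looked at after its values were seen, held 426, 400 and 355 against 604, 612 and 540. It had a log2 fold change of 0.57 and an edgeR adjusted p of 0.602.

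**Figure D2:**
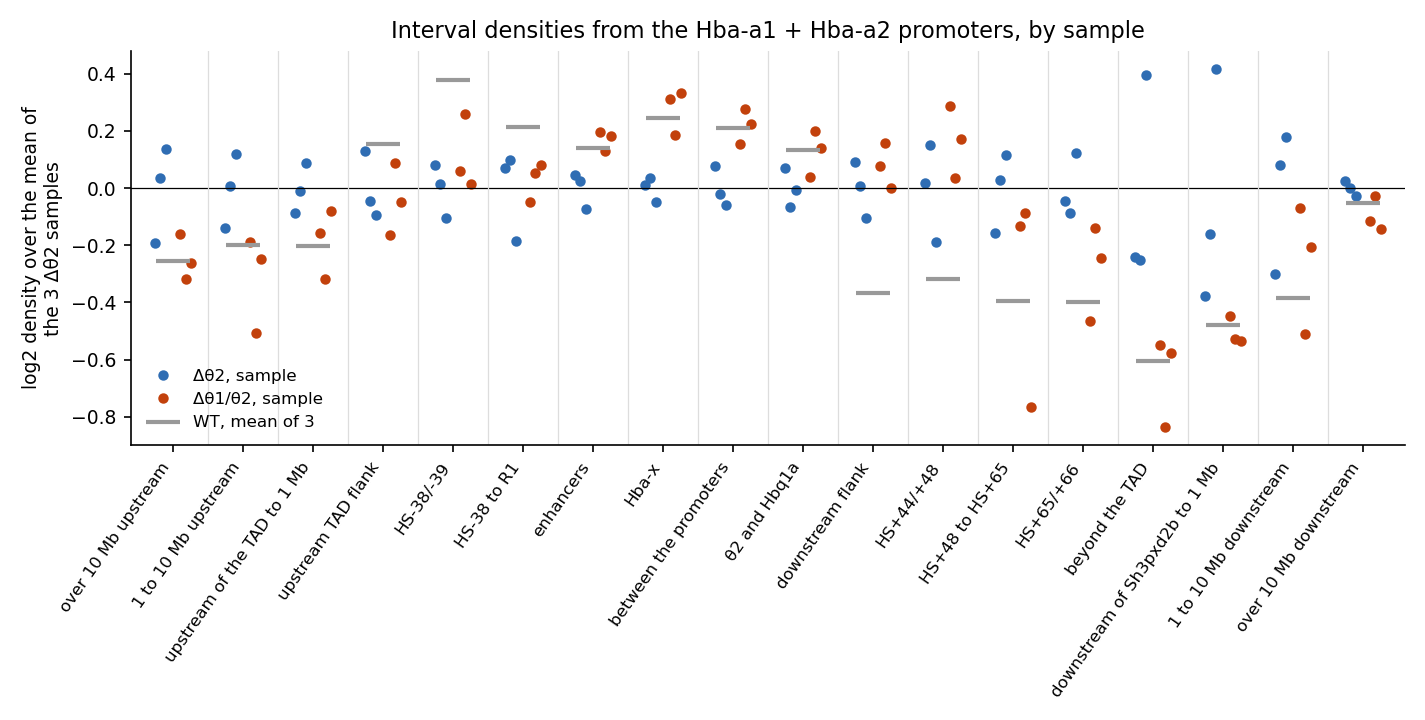
Density of each of the 18 α-globin intervals in each sample, as log2 over the mean of the 3 Δθ2 samples, from the far upstream part of chromosome 11 on the left to the far downstream part on the right. Points are samples and grey bars the WT mean. The Δθ1/θ2 points lie above all Δθ2 points at the enhancers, at Hba-x and between the promoters, and below them beyond the TAD, where the third Δθ2 sample stands high.

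Downstream of θ2 the flank that runs to HS+44 had densities of 343, 324 and 299 in Δθ2 and 340, 359 and 323 in Δθ1/θ2. The groups overlapped (log2 fold change 0.08, 95% CI -0.12 to 0.27). Every one of these 6 values was above the WT samples, which lay at 247, 249 and 255. The HS+44/+48 interval likewise overlapped, with 174, 191 and 151 against 210, 176 and 194 (log2 fold change 0.16, 95% CI -0.09 to 0.41), and its WT samples lay at 135, 135 and 144. From HS+48 to HS+65 the log2 fold change was -0.27 (edgeR adjusted p 0.236), and it ran from -0.38 to -0.10 on leaving out single samples. At HS+65/+66, the last CTCF cluster of the larger domain, the double mutants were all lower, with 28.3, 35.5 and 33.0 against 37.9, 36.8 and 42.6 (log2 fold change -0.29, edgeR adjusted p 0.138).

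The interval beyond the TAD, chr11:32244879-32329896, holds the body of Sh3pxd2b, which encodes an adaptor of podosomes. It had the largest fold change of the 18 intervals. Densities were 13.4, 13.3 and 20.8 in Δθ2 and 10.8, 8.86 and 10.6 in Δθ1/θ2, and the groups did not overlap. The log2 fold change was -0.61 (SE 0.18, 95% CI -1.02 to -0.20), unadjusted p 0.00798 and edgeR adjusted p 0.0718. The third Δθ2 sample stood highest, and without it the log2 fold change was -0.39 with an adjusted p of 0.0266. Without the first Δθ2 sample the interval was called, with a log2 fold change of -0.71 and an adjusted p of 0.0023. WT samples lay at 7.78, 12.5 and 11, a range that holds all 3 Δθ1/θ2 values and none of the Δθ2 values.

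From the end of Sh3pxd2b to 1 Mb, densities were 2.75, 3.20 and 4.78 in Δθ2 and 2.62, 2.48 and 2.47 in Δθ1/θ2, a log2 fold change of -0.49 with an edgeR adjusted p of 0.0877. This interval too had its highest value in the third Δθ2 sample, and without that sample the log2 fold change was -0.24. Without the first Δθ2 sample it was -0.64 and the interval was called (edgeR adjusted p 0.0023). On the other side, from 1 to 10 Mb upstream, densities were 0.484, 0.536 and 0.579 against 0.468, 0.375 and 0.448 (log2 fold change -0.30, edgeR adjusted p 0.0877). The log2 fold change was -0.24 over 10 Mb upstream, -0.18 within 1 Mb upstream of the TAD, and -0.04 in the upstream flank of the TAD. It was -0.24 from 1 to 10 Mb downstream (-0.37 to -0.13 on leaving out single samples). Over 10 Mb downstream it was -0.09, and all 3 double mutants were lower there. The share of cis counts within 1 Mb of the viewpoints was 68.6, 67.0 and 66.4% in Δθ2 and 70.1, 71.0 and 71.2% in Δθ1/θ2. All 3 double mutants were higher, by 3.46 percentage points on average, and the two-sided exact permutation p of 0.1 is the smallest that 3 against 3 samples can give. In WT this share was 71.0, 68.4 and 70.9%.

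Genes along chromosome 11 were compared by the counts of all fragments they overlap, per 100000 cis counts and not per length. Hba-a1 and Hba-a2 themselves lay in the excluded zone. Of 29 genes within 1 Mb, edgeR called 0 (0.0%) and DESeq2 0, and 4 had an unadjusted edgeR p under 0.05. With simulated log2 changes of 1 and 0.5, edgeR recovered 47.5 and 3.75% of the changed α genes. Of the 14 members of the α-globin gene list that were measured, 6 lay above 0, 8 below 0 and none passed the test. Among the 12 genes downstream of Hbq1a, 11 had a fold change below 0, with a median of -0.56 on the log2 scale, and in 4 all double mutants were lower. Without the third Δθ2 sample, 10 of the 11 that passed the count minimum lay below 0 and the median was -0.35. The other 17 genes were Hbq1a, which starts just after the θ2 motif, and the genes upstream of it. Of these, 7 lay above 0 and 10 below, with a median of -0.02. DESeq2's size factors left the count downstream of Hbq1a at 11 of 12 below 0 but put 12 of the other 17 genes above 0. TMM factors put 16 of those 17 below. Over all 29 genes the background of no overlap was 3.45% for higher and 24.1% for lower double mutants.

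No gene of the sub-TAD passed the test. Nprl3, the GATOR1 subunit gene whose introns hold the enhancers, held 20875, 20147 and 18570 counts per 100000 cis counts in Δθ2 and 21365, 21245 and 21786 in Δθ1/θ2. It was the single gene in which all double mutants were higher (log2 fold change 0.11, SE 0.169, edgeR adjusted p 0.801). Hbq1b, beside θ1, held 2364, 2015 and 1883 in Δθ2 and 1806, 2782 and 2227 in Δθ1/θ2, with overlap and a log2 fold change of 0.12. Hbq1a, beside θ2, had a log2 fold change of 0.19 (0.006 to 0.316 on leaving out single samples), and Hba-x one of 0.13. The fragment over the start of Hba-x held 387, 484 and 532 counts per 100000 cis counts in Δθ2 and 438, 565 and 466 in Δθ1/θ2, with overlap. The upstream neighbours were as close to 0, at 0.06 for Mpg, a DNA glycosylase, -0.02 for Rhbdf1, an inactive rhomboid, -0.02 for Snrnp25, a minor spliceosome protein, and -0.03 for Il9r, the interleukin 9 receptor.

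Beyond the downstream border, Sh3pxd2b held 1043, 1010 and 1572 counts per 100000 cis counts in Δθ2 and 863, 706 and 755 in Δθ1/θ2. The groups did not overlap, and the log2 fold change was -0.63 (SE 0.229, unadjusted p 0.0215, edgeR adjusted p 0.289). On leaving out each sample in turn it ran from -0.75 to -0.40, the latter without the third Δθ2 sample. Npm1, the nucleophosmin gene, held 48.4, 63.0 and 62.3 in Δθ2 and 46.1, 15.7 and 5.24 in Δθ1/θ2, which is 98 counts in all 6 samples together. Its log2 fold change was -1.04 with an edgeR adjusted p of 0.289, and it was -2.42 without the first Δθ1/θ2 sample and -0.70 without the third. Ubtd2 and Stk10 had log2 fold changes of -0.40 and -0.41 with overlapping groups, which were -0.17 and -0.09 without the third Δθ2 sample. Efcab9 had one of -0.55 (-0.78 to -0.29 on leaving out single samples), and Fgf18, a fibroblast growth factor gene, one of 0.11. At the start of Sh3pxd2b the sign was the opposite. The fragment there held 12.1, 6.15 and 0 counts per 100000 cis counts in Δθ2 and 34.6, 26.2 and 15.7 in Δθ1/θ2, from 32 counts in all (log2 fold change 1.90, SE 1.10, edgeR adjusted p 0.697).

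The adult promoters were also read apart, since θ1 lies downstream of Hba-a1 and upstream of Hba-a2. From Hba-a1 the log2 fold change was 0.15 at the enhancers, 0.29 at Hba-x, 0.21 between the promoters and -0.54 beyond the TAD. From Hba-a2 the same intervals gave 0.19, 0.25, 0.22 and -0.62. Neither promoter alone had a called interval by edgeR. Within a sample, the enhancer density from Hba-a1 over that from Hba-a2 was 0.13, 0.16 and 0.07 on the log2 scale in Δθ2 and 0.11, 0.07 and 0.07 in Δθ1/θ2. The difference of -0.03 had a two-sided exact permutation p of 0.4, and the WT mean was 0.13. The near-identical α genes and the counting of some molecules under both viewpoints mean that these readings are not independent.

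Ratios of densities within a sample do not depend on the cis total. The enhancers over the downstream flank gave 0.79, 0.85 and 0.86 on the log2 scale in Δθ2 and 0.95, 0.80 and 1.01 in Δθ1/θ2, with overlap (difference 0.09, two-sided exact permutation p 0.3). Every mutant value lay below the WT values of 1.48, 1.32 and 1.2. HS-38/-39 over HS+44/+48 gave 1.57, 1.38 and 1.59 against 1.29, 1.74 and 1.35 (difference -0.06, exact permutation p 0.8), with WT at 2.23, 2.11 and 2.27. The stretch between the promoters over the enhancers gave 0.82, 0.75 and 0.81 against 0.75, 0.94 and 0.83 (difference 0.05, exact permutation p 0.4). The interval beyond the TAD over the downstream flank gave -4.68, -4.61 and -3.85 in Δθ2 and -4.97, -5.34 and -4.93 in Δθ1/θ2. These did not overlap, and the difference of -0.70 had an exact permutation p of 0.1, the smallest possible for any of the 13 measures compared within samples. Without the third Δθ2 sample the difference was -0.44.

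**Figure D3:**
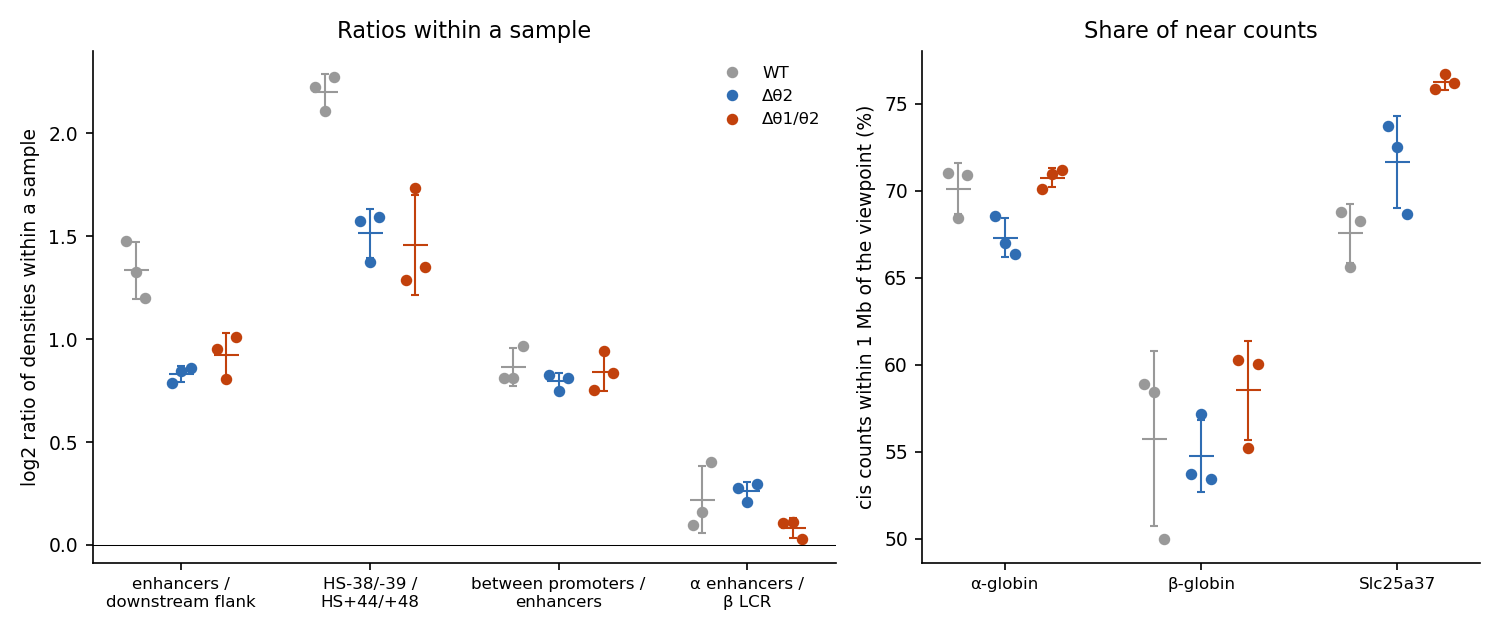
Left, log2 ratios of interval densities within each sample; right, the percentage of cis counts within 1 Mb of the viewpoint at the 3 loci. Points are samples, and bars give the mean and SD of 3. The Δθ1/θ2 and Δθ2 points overlap for the enhancer and HS-38/-39 ratios and lie below WT together, while the near share of the α-globin and Slc25a37 viewpoints is higher in all 3 Δθ1/θ2 samples than in all 3 Δθ2 samples.

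The control loci, on other chromosomes and unedited, gave a measure of how far the same samples differed away from θ1. From the β-globin promoters, edgeR called 2 of 12 intervals (16.7%) and DESeq2 2, both higher in Δθ1/θ2. The stretch between the adult β genes had densities of 815, 808 and 778 in Δθ2 and 1047, 991 and 1153 in Δθ1/θ2 (log2 fold change 0.41, SE 0.0984, edgeR adjusted p 0.00155). The locus control region, the enhancer cluster of the β genes, had 489, 504 and 443 against 610, 580 and 639 (log2 fold change 0.35, SE 0.0970, edgeR adjusted p 0.00461). Neither interval overlapped between the groups, but the WT samples alone ran from 764 to 994 in the former and from 443 to 642 in the latter. Without the second Δθ2 sample or the third Δθ1/θ2 sample neither was called, at adjusted p values of 0.0125 and 0.0193 for both. Without the third Δθ2 sample the locus control region was not called (adjusted p 0.0423). Both calls were also lost in edgeR with TMM factors (adjusted p 0.0553 and 0.110) and under the replicate block (0.0607 and 0.0792). That between the adult genes was lost with a wider excluded zone (0.505), and that of the locus control region with all groups in the fit (0.0418) or the library size within 1 Mb (0.0173).

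The fold changes at these β intervals were thus larger than the 0.17, 0.28 and 0.22 of the α enhancers, Hba-x and the stretch between the α promoters. The log2 ratio of the α enhancer density to that of the β locus control region was 0.28, 0.21 and 0.30 in Δθ2 and 0.11, 0.11 and 0.03 in Δθ1/θ2. All 3 double mutants were lower (difference -0.18, two-sided exact permutation p 0.1). One of 893 β fragments was called (0.112%), chr7:111009074-111009377 in the locus control region, with 175, 363 and 198 counts per 100000 cis counts in Δθ2 and 557, 651 and 467 in Δθ1/θ2 (log2 fold change 1.14, SE 0.258, edgeR adjusted p 0.00947). DESeq2 called no β fragment, with 49 at an unadjusted p under 0.05. Of 81 genes on the β side edgeR and DESeq2 called 0 (0.0%), with 5 and 0 at an unadjusted p under 0.05. The other 10 β intervals had log2 fold changes from -0.32, at 1 to 10 Mb on the side of the locus control region, to 0.02, at the flank on the Hbb-b2 side. The embryonic genes Hbb-bh1 and Hbb-y had log2 fold changes of -0.08 and -0.11.

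From the promoter of Slc25a37, which encodes the mitochondrial iron carrier mitoferrin, edgeR called 0 of 14 intervals (0.0%) and DESeq2 0, with 5 and 2 at an unadjusted p under 0.05. The stretch from Slc25a37 to Entpd4 was the single interval with all double mutants higher (7.14%), at 627, 640 and 584 against 718, 684 and 702 (log2 fold change 0.18, edgeR adjusted p 0.0848). All double mutants were lower in 5 intervals (35.7%). The other 13 intervals had log2 fold changes from -0.32, at 1 to 10 Mb on the gene side, to 0.09, over the Slc25a37 body. Its near share of cis counts was 73.7, 72.5 and 68.7% in Δθ2 and 75.8, 76.7 and 76.2% in Δθ1/θ2. It was higher in all double mutants, by 4.6 percentage points (exact permutation p 0.1). At the β-globin locus the same share overlapped between the groups, with 53.7, 57.2 and 53.4% in Δθ2 and 60.3, 55.2 and 60.1% in Δθ1/θ2 (exact permutation p 0.2). The near share was thus 3.46, 3.76 and 4.6 percentage points higher in Δθ1/θ2 at the α-globin, β-globin and Slc25a37 viewpoints, and its part in the α-globin differences was not tested. None of 920 Slc25a37 fragments and none of 33 genes was called by edgeR or DESeq2 (0.0%). At an unadjusted p under 0.05 there were 66 fragments and 5 genes by edgeR and 44 and 4 by DESeq2. Of the 3 fragments with the smallest p, all higher in the Δθ1/θ2 mean, the one nearest the viewpoint (64 bp, 19.2 kb away) held 174, 164 and 95.5 counts per 100000 cis counts in Δθ2 and 221, 262 and 325 in Δθ1/θ2 (log2 fold change 0.78, edgeR adjusted p 0.169). The other two held at most 16.3 in any Δθ2 sample. The genes Slc25a37, Entpd4 and Loxl2 had log2 fold changes of 0.10, -0.03 and -0.03.

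**Figure D4:**
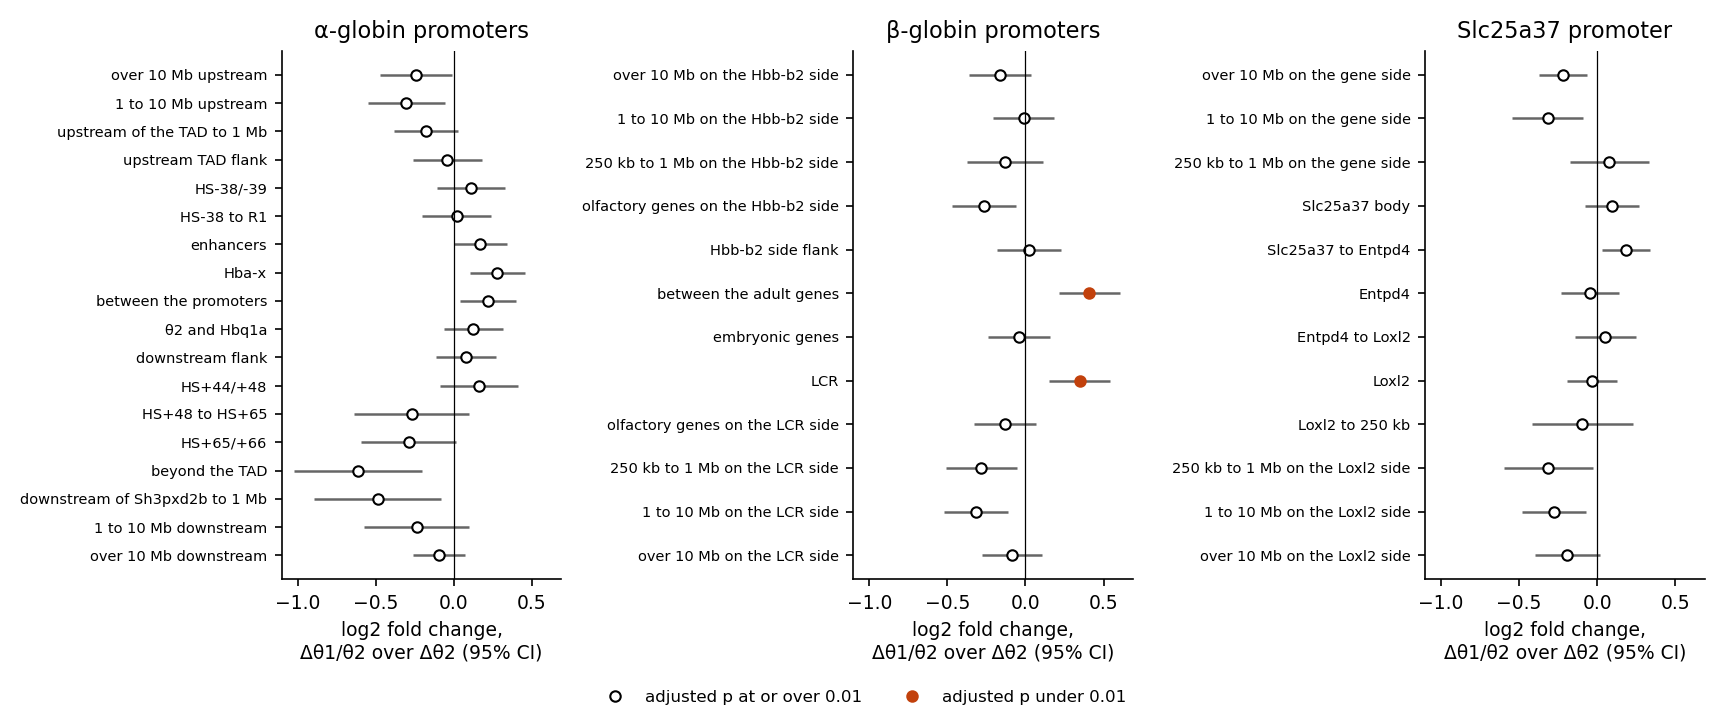
Log2 fold change of Δθ1/θ2 over Δθ2 with its 95% CI for each interval seen from the α-globin promoters (18 intervals), the β-globin promoters (12) and the Slc25a37 promoter (12 of the 14), ordered along each chromosome. Filled points are the 2 intervals past an adjusted p of 0.01, both at the β-globin locus. In each panel most intervals above 0 lie near the viewpoints, and all those over 1 Mb away lie below 0.

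Whether the change on losing θ1 differed between cells with and without θ2 was tested as an interaction in one edgeR fit over the 4 genotypes. The loss of θ1 with θ2 present, Δθ1 over WT, gave log2 fold changes of -0.35 at the enhancers, -0.29 at Hba-x and -0.24 between the promoters. With θ2 lost the same fit gave 0.17, 0.28 and 0.22. The interaction was 0.52, 0.57 and 0.45 at these intervals, and -0.40 on chromosome 11 over 10 Mb downstream (0.30 with θ2 present and -0.09 with θ2 lost). Each had an edgeR adjusted p of 0.00512, and these were the 4 of 18 intervals past 0.01 (22.2%). With a replicate block 0 were called, and with TMM factors the one over 10 Mb downstream was not. At the θ2 interval it was -0.06 and at the downstream flank -0.00. Beyond the TAD the interaction was -1.15 with an adjusted p of 0.0217.

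The Δθ1 samples limit that test. They held 8820 to 22935 counts in all, against at least 65610 in every other sample of the experiment. Of their α counts, 63.9% ± 0.540 (SD, n = 3) fell in cis, against 71.9% ± 0.446 in WT. Their near share from the β-globin viewpoints, a locus without an edit, was 40.8, 36.6 and 44.4%, below all WT values of 58.9, 58.4 and 49.9%. At the β locus control region, mean densities were 548 in WT, 297 in Δθ1, 478 in Δθ2 and 610 in Δθ1/θ2. Between the adult β genes they were 888, 577, 800 and 1064. Δθ1 thus lay below WT and Δθ1/θ2 above Δθ2 at both, as at the α enhancers. At the embryonic β genes the means were 361, 326, 381 and 370. The interaction was not tested at the β locus. The part of depth and cis share in the interaction was not tested. The number of called intervals also fell to 0 when the second Δθ1, the second Δθ2, the first Δθ1/θ2 or the third Δθ1/θ2 sample was left out, to 1 without the third WT sample and to 2 without the first WT or the third Δθ1 sample.

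**Figure D5:**
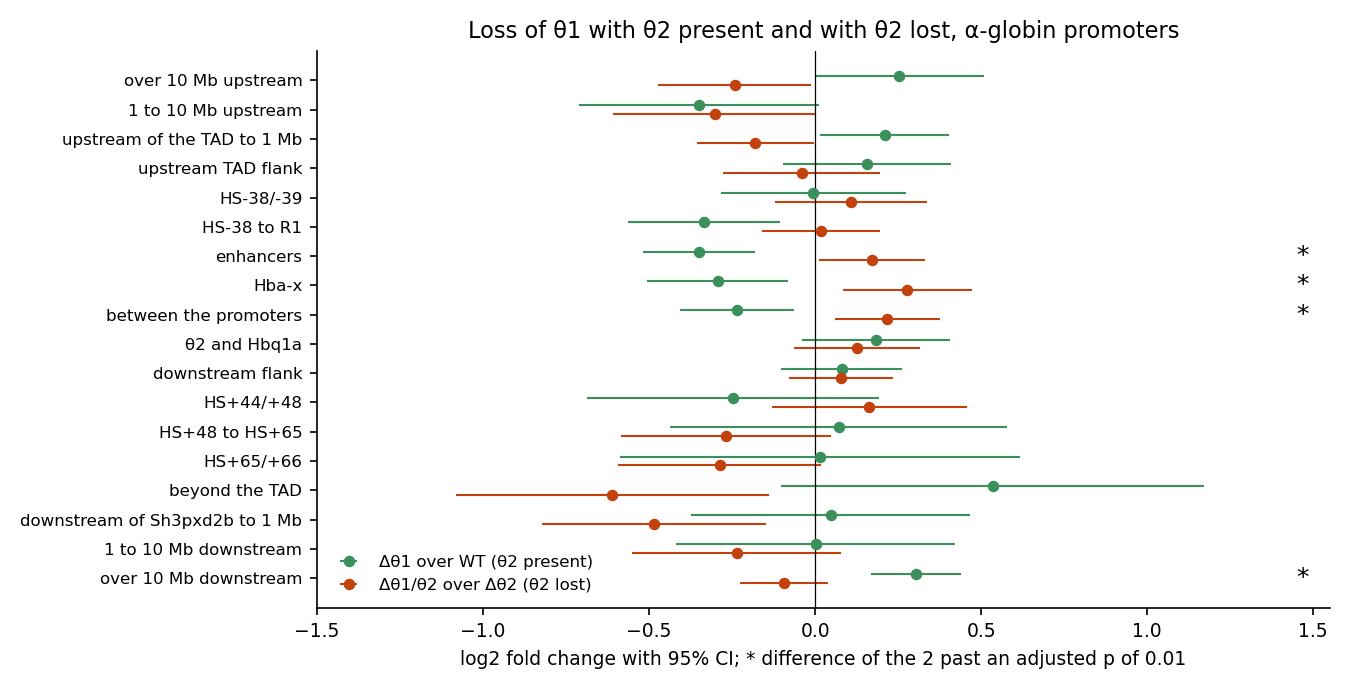
Log2 fold change with its 95% CI for the loss of θ1 in each of the 18 α-globin intervals, with θ2 present (Δθ1 over WT, green) and with θ2 lost (Δθ1/θ2 over Δθ2, orange), from one fit of 12 samples. Stars mark the 4 intervals whose difference passed an adjusted p of 0.01; at 3 of them, the enhancers, Hba-x and between the promoters, the green points lie below 0 and the orange points above it.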

How the data were processed

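NG Capture-C of 12 samples from experiment 2 was used, of which 6 (Δθ1/θ2 and Δθ2, n = 3 each, replicates by label and biological by the methods) made the comparison and WT and Δθ1 the background. The authors trimmed reads with Trim Galore, aligned them to mm9 with Bowtie and deposited, for each viewpoint, raw interaction counts per DpnII fragment. Rows that combined viewpoints were left out. Viewpoint positions came from a deposited table of coordinates (neither signal nor level). In it the fragments named Hbb-b1 and Hbb-b2 overlap the annotated Hbb-b2 and Hbb-b1.

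Counts of both promoters of a globin locus were summed, although 53.4 to 63.7% of trans fragments were listed under both α viewpoints, so a molecule may be counted under each. Fragments within 1 kb of a viewpoint were excluded. The library size was the remaining cis count. Depth and cis counts are in the report and bound the precision of sparse fragments. The main test was edgeR 4.0.16 (R 4.3.3, glmQLFTest) on intervals, genes and fragments with at least 10 counts, checked on simulated data. At a true log2 change of 1 it recovered 4.5, 6 and 19.5% of changed α, β and Slc25a37 fragments. For genes it recovered 47.5, 3.75 and 51.25%, and for intervals 100% at each locus. At 0.5 it recovered 3.75, 0 and 2.5% of genes and 71.25, 95 and 93.75% of intervals. A lack of calls on fragments or genes thus does not show a lack of change. DESeq2 1.42.0, TMM factors, a near library size, a zone wider by 5 kb, other count minimums, single viewpoints, a replicate block and each sample left out were alternatives. For a single value per sample the exact permutation test over samples was two-sided, with 0.1 as its smallest p. No 2 replicates agreed within sampling noise (chi-square per degree of freedom 1.68 to 3.53 over 18 pairs). The p-values of edgeR and DESeq2 weigh a difference between groups against the spread estimated from these samples. Fragments named were the θ, enhancer, HS and gene-start fragments, every called fragment up to 5, or where none was called the 3 with the smallest p, and genes came from a list of each locus. Of those 3 at the α locus, 2 had counts in one sample alone and are not described. The values of 2 Slc25a37 intervals are not reported here. The members and lists were chosen with earlier results of these data known.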

Additional observations from a re-analysis of the deposited data

Results flagged for a closer look

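The 4 interactions past the threshold stand out because the loss of θ1 gave different changes with θ2 present and with θ2 lost, by a test of the difference itself (edgeR over 12 samples). The difference on the log2 scale was 0.52 at the enhancers, 0.57 around Hba-x, 0.45 between the promoters and -0.40 over 10 Mb downstream. At the first 3 intervals all Δθ1/θ2 samples were above all Δθ2 samples. The Δθ1 samples on which the contrast rests had the lowest depth and cis share of the experiment, whose part was not tested. At the unedited β locus control region, the mean density was also lower in Δθ1 than in WT (297 against 548). It was also higher there in Δθ1/θ2 than in Δθ2 (610 against 478), and the interaction was not tested at that locus. The WT samples on which it also rests stood apart from all mutants at Loxl2, on a chromosome without an edit. Of the 4, 0 were called under the replicate block, and 0 on leaving out the second Δθ1, the second Δθ2, the first Δθ1/θ2 or the third Δθ1/θ2 sample.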

How the results depend on the processing

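Counts of calls moved as follows. At the α locus 0 intervals were called, 3 by DESeq2 and 1 under the replicate block (beyond the TAD), with 0 to 2 on leaving out samples (2 without Δθ2 replicate 1, beyond the TAD and downstream of Sh3pxd2b to 1 Mb). At the β locus 2 intervals became 0 with TMM factors or the block, 1 with the wider zone or all groups in the fit, 5 at a threshold of 0.05, and 0 to 4 on leaving out samples (4 without Δθ2 replicate 1, 1 without Δθ2 replicate 3, 0 without Δθ2 replicate 2 or Δθ1/θ2 replicate 3). The 1 β fragment became 0 with DESeq2, TMM factors, a library size within 1 Mb, all groups, the block, a minimum of 1 count, Hbb-b2 alone or the larger count of both viewpoints, and 0 to 1 on leaving out samples (0 without Δθ2 replicate 1 or 3 or Δθ1/θ2 replicate 1 or 2). At Slc25a37 leaving out samples gave 0 to 3 intervals (3 without Δθ2 replicate 1). The 4 interactions became 8 at 0.05 and 0 under the block, with 0 to 5 on leaving out samples. The α fragments and genes stayed at 0 under all 18 alternatives each. Replicate numbers did not pair the samples: deviations of same-numbered samples correlated between -0.158 and 0.042 (α), -0.082 and 0.082 (β) and -0.098 and 0.004 (Slc25a37). The wider zone leaves no fragment between the promoters or in the θ2 interval. The median of all α intervals shifted by -0.15 with TMM factors, and that of α genes by 0.24 with DESeq2 and -0.14 with TMM. The shifts for β and Slc25a37 genes with DESeq2 were 0.32 and 0.12. The causes of these moves were not tested.

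Direction turned as follows, in log2 unless given. With DESeq2 the fragments HS-39, R1, Hba-x start and θ1 gave -0.036, -0.012, -0.046 and -0.028, the genes Il9r, Rhbdf1, Snrnp25, Hbb-bh1, Hbb-y, Entpd4 and Loxl2 gave 0.22, 0.23, 0.22, 0.25, 0.23, 0.098 and 0.099, and the intervals 1 to 10 Mb on the Hbb-b2 side, embryonic β genes, Entpd4 and Loxl2 gave 0.070, 0.038, 0.031 and 0.041. With TMM factors the same fragments gave -0.085, -0.058, -0.085 and -0.069, the genes Fgf18, Hba-x, Hbq1b, Mpg and Nprl3 gave -0.034, -0.021, -0.047, -0.097 and -0.039, and the intervals HS-38 to R1, HS-38/-39, downstream flank, θ2, Hbb-b2 side flank and Entpd4 to Loxl2 gave -0.13, -0.039, -0.071, -0.024, -0.082 and -0.025. With a library size within 1 Mb, HS-39, Hba-x start, Mpg, HS-38 to R1, Hbb-b2 side flank, 250 kb to 1 Mb on the Slc25a37 gene side and Entpd4 to Loxl2 gave -0.0031, -0.0078, -0.012, -0.052, -0.077, -0.0080 and -0.035. With the wider zone the cis share differed by -1.0 (α) and -1.65 (β) percentage points, and Il9r, Rhbdf1, Snrnp25, upstream TAD flank, 1 to 10 Mb on the Hbb-b2 side and Entpd4 gave 0.016, 0.027, 0.022, 0.0034, 0.040 and 0.0034. From Hba-a1 alone the fragments HS-39, R1 and θ1 and the interval HS-38 to R1 gave -0.058, -0.037, -0.034 and -0.031. From Hba-a2 alone Hba-x start and Fgf18 gave -0.014 and -0.099. From Hbb-b1 alone Hbb-bh1 gave 0.043, and from Hbb-b2 alone its flank gave -0.010. With the larger count of both viewpoints Rhbdf1, Snrnp25 and 1 to 10 Mb on the Hbb-b2 side gave 0.031, 0.029 and 0.0014. Without the top fragment of each interval HS-38 to R1 and Hbb-b2 side flank gave -0.045 and -0.011.

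On leaving out one sample, these ranges crossed 0: the ratio of HS-38/-39 to HS+44/+48 -0.20 to 0.028, that of the stretch between the promoters to the enhancers -0.0019 to 0.094, β cis share -0.49 to 1.6 percentage points, fragments HS-39 -0.14 to 0.24, R1 -0.088 to 0.20, R2 -0.067 to 0.48, Hba-x start -0.055 to 0.16 and θ1 -0.12 to 0.24, genes Fgf18 -0.28 to 0.33, Hbq1b -0.054 to 0.26, Il9r -0.26 to 0.18, Mpg -0.033 to 0.21, Rhbdf1 -0.12 to 0.093, Snrnp25 -0.089 to 0.054, Hbb-bh1 -0.15 to 0.041 and Entpd4 -0.10 to 0.017, and intervals HS-38 to R1 -0.062 to 0.072, upstream TAD flank -0.11 to 0.029, 1 to 10 Mb on the Hbb-b2 side -0.056 to 0.039, Hbb-b2 side flank -0.045 to 0.065, embryonic β genes -0.084 to 0.021, 250 kb to 1 Mb on the gene side -0.025 to 0.13 and Loxl2 to 250 kb -0.25 to 0.033. The α intervals not named in these lists kept their sign under every alternative run. Depth limited the precision of single fragments and genes, several of which held under 100 counts in all 6 samples together.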
